A study of Mus musculus with 7 samples.

Results

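The genes described here are the 10 genes of the cone phototransduction cascade, chosen by name from a table of 54532 genes measured by RNA sequencing in mouse eye tissue. They are the cone opsins Opn1sw and Opn1mw, the cone transducin subunits Gnat2, Gnb3 and Gngt2, the cone phosphodiesterase subunits Pde6c and Pde6h, the cone channel subunits Cnga3 and Cngb3, and the cone arrestin Arr3. All 10 were found in the table and all 10 passed the filter on low values, among 15472 genes tested. The samples differed in Agbl5, which encodes an enzyme that trims glutamate chains from tubulin, and the series asked what that gene does in photoreceptors. There were 3 libraries of Agbl5 knockout tissue, 2 of heterozygous tissue and 2 of wildtype tissue, and the heterozygous and wildtype libraries together are called the 4 controls. The tissue label named the eyeball while the extraction protocol spoke of retina. The labels gave no strain, age, sex, type of allele or driver of the deletion. They also did not say whether replicates of a genotype were separate animals. The p-values therefore measure only the spread between these libraries, which may be technical in part.

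Cones are the photoreceptors of daylight and colour vision and are a small minority among the rods of a mouse retina. In a cone, light turns an opsin into an activator of transducin, a G protein of alpha, beta and gamma subunits. Transducin then relieves the inhibition of a phosphodiesterase that breaks down cyclic GMP, cyclic nucleotide-gated channels close, and arrestin stops the activated opsin. Rods run the same cascade with a parallel set of genes. Gnb3, the beta subunit of cone transducin, is the member with a known second home in the retina, since ON bipolar cells also use it in the G protein downstream of their glutamate receptor mGluR6.

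The targeted gene and the makeup of the libraries were checked before the cone genes were compared. Agbl5 stood at 1.53, 1.73 and 1.26 FPKM (fragments scaled by exon length and library size) in knockout 1 to 3, at 4.21 and 5.34 FPKM in heterozygous 1 and 2, and at 9.89 and 8.57 FPKM in wildtype 1 and 2. Its level therefore followed the labels, and exons of Ost4 overlap it. Lens RNA set a pair of libraries apart, with the crystallin gene Cryaa at 2541 FPKM in knockout 1 and 1733 FPKM in heterozygous 1, and at 1.11 to 12.3 FPKM in the other 5. Xist, transcribed from an inactive X chromosome, was at 158 FPKM in knockout 3 and 181 FPKM in wildtype 2 and below 0.1 FPKM elsewhere. The Y-linked gene Ddx3y was at 0 FPKM in knockout 3 and wildtype 2 and at 15.3 to 17.7 FPKM elsewhere. By these genes knockout 3 and wildtype 2 were female and came from other animals than the rest of their genotype. For knockout 1 and 2 and for the heterozygous libraries these genes do not show whether the animals were separate. Whole reads recovered from the deposited values summed to 12244707 to 14339701 per library, and the cone genes rested on 175 reads (Cnga3 in knockout 2) to 9838 reads (Gnb3 in knockout 2). The library kit did not mark the strand. Exons of Calu overlap those of Opn1sw by 397 bases, Abi3 overlaps Gngt2 by 234 bases and Arhgdib overlaps Pde6h by 136 bases, so reads there could not be assigned, whereas no annotated exon of another gene overlaps Gnb3. In bulk tissue, fewer cones and less RNA per cone cannot be told apart.

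Since the results turn on Gnb3, stretches in which its coding sequence is identical to that of a relative are shown, because a read confined to such a stretch could not be assigned to 1 gene. The longest identical stretch was 24 bases with Gnb4 and 20 bases with Gnb1, the beta subunit of rod transducin (mouse transcripts of GENCODE M21, GRCm38). The sequences run 5′ to 3′ on the transcript.
Gnb3 and Gnb4: tgacggcatggctgtggccactgg
Gnb3 and Gnb1: tcctgggacagcttcctcaa
Between 7 of the other cone genes and their rod relatives the longest identical stretch ran from 13 bases (Gngt2 with Gngt1) to 23 bases (Gnat2 with Gnat1, and Pde6c with Pde6b).

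Upstream sequence was at hand for 6 of the 10 genes, Opn1sw, Opn1mw, Arr3, Gnat2, Pde6h and Cnga3, in RefSeq windows of GRCm38.p6. The 250 bases before the RefSeq start site of Gnat2 and of Arr3 are printed because these windows held a homeodomain motif of the kind bound by photoreceptor factors. The Gnat2 window lies at chr3:108092816-108093065 and the Arr3 window at chrX:100605247-100605496, both on the plus strand. In GENCODE M21 the gene Gnat2 begins at chr3:108092789, before its window, which therefore lies within the gene as annotated there. Capitals mark GGATTA in Gnat2, the reverse complement of the CRX core TAATCC, and TAATTA in Arr3.
Gnat2: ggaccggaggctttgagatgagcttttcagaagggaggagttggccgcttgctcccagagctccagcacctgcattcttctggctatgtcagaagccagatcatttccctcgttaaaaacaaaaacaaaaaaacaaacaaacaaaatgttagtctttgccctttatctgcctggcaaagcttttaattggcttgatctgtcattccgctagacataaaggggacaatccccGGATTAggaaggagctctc
Arr3: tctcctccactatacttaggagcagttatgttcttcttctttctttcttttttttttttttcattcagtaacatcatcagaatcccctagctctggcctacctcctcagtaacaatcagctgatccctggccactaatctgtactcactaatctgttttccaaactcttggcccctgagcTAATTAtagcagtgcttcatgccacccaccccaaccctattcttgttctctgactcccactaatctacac
TAATCC or GGATTA occurred in 6.3% and TAATTA, which reads the same on both strands, in 4.8% of the 32851 mouse promoters of the same table. Searched on both strands, the other windows of cone genes held neither motif, which says only that these letters are not there.

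Gnb3 rose in knockout tissue while none of its 9 cone partners passed the test. Against wildtype 0.323% of all genes tested were called, so 0 calls among 9 genes is close to that share. Gnb3 (ENSMUSG00000023439, minus strand, chr6:124834240-124840275 of GRCm38, 10 merged exons over 2632 bases) was at 258, 265 and 230.4 FPKM in knockout 1 to 3. It was at 116 and 125 FPKM in heterozygous 1 and 2 and at 137 and 126 FPKM in wildtype 1 and 2. Every knockout library lay above every control library, with a wide gap. The rise over wildtype was 1.90-fold in mean FPKM, a log2 fold change of 0.92 ± 0.08 (SE; 95% interval 0.72 to 1.12; limma, adjusted p = 0.0129). Against heterozygous tissue it was 2.09-fold, with a log2 fold change of 1.06 ± 0.08 (limma, adjusted p = 0.00753), and against the 4 controls 0.99 ± 0.08 (limma, adjusted p = 0.0013). These comparisons share the knockout libraries and do not support each other independently.

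**Figure D1:**
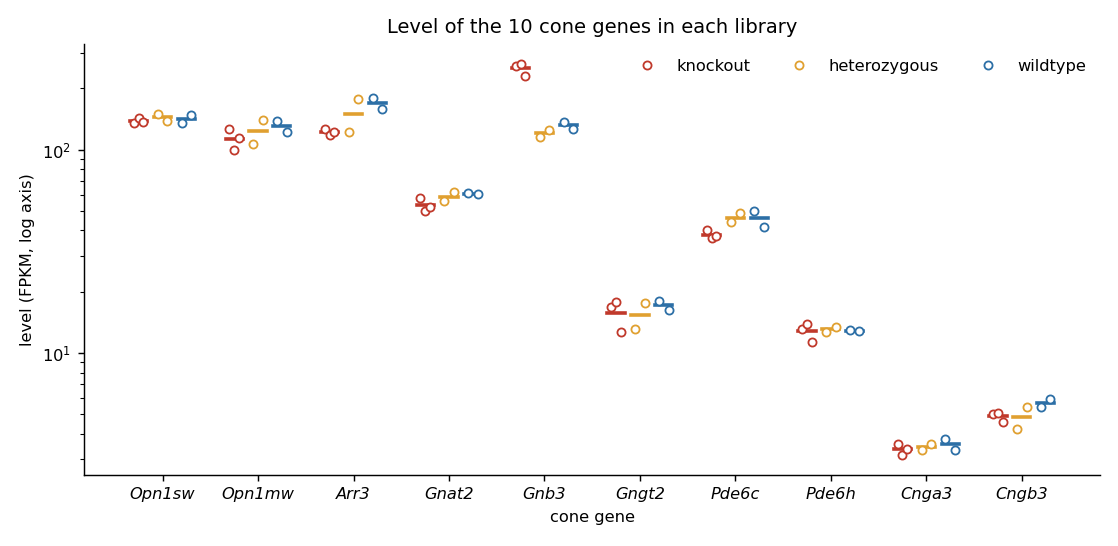
FPKM of the 10 cone genes on a log axis, with an open point for each library and a bar at the mean of each genotype (knockout, n = 3, heterozygous, n = 2, wildtype, n = 2). Gnb3 in the 3 knockout libraries sits between 230.4 and 265 FPKM, above all controls, while Opn1sw, Opn1mw, Gngt2, Pde6h and Cnga3 overlap between genotypes.

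The order of the levels, which are scaled by exon length, differed at the top. In knockout libraries Gnb3 led with a mean of 251 FPKM, followed by Opn1sw at 138, Arr3 at 122, Opn1mw at 113, Gnat2 at 53.2 and Pde6c at 38.1 FPKM. In wildtype libraries Arr3 led with 169 FPKM, followed by Opn1sw at 141, Gnb3 at 132, Opn1mw at 130.2, Gnat2 at 60.7 and Pde6c at 45.9 FPKM, and the libraries of Opn1sw, Gnb3 and Opn1mw overlapped each other there. Gngt2, Pde6h, Cngb3 and Cnga3 followed in that order in both genotypes, with means from 15.7 down to 3.36 FPKM in knockout libraries and from 17.1 down to 3.56 FPKM in wildtype libraries.

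In knockout against wildtype tissue 1 of the 10 cone genes was called, against 0.323% of all 15472 genes tested. In knockout against heterozygous tissue it was again 1 of 10, against 0.317% of all genes, and in knockout against the 4 controls 1 of 10, against 0.614%. The call in each of these comparisons was Gnb3. Libraries of knockout and wildtype tissue did not overlap for 5 of 10 cone genes (Gnb3, Arr3, Gnat2, Pde6c and Cngb3), against 28.2% of all genes tested. For knockout against the 4 controls the count was 2 of 10 (Gnb3 and Pde6c), against 13% of all genes.

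The call of Gnb3 against wildtype was lost under several alternatives, and the cause was not tested. It was kept without knockout 3 (log2 fold change 0.98, limma adjusted p = 0.0279). It was lost without knockout 1 (log2 fold change 0.90, adjusted p = 0.0734), without knockout 2 (0.88, adjusted p = 0.0659), without wildtype 1 (0.98, adjusted p = 0.113) and without wildtype 2 (0.86, adjusted p = 0.183), by limma as before. It was also lost with both lens-rich libraries left out (0.90, limma adjusted p = 0.138) and on the TPM scale (0.76, limma adjusted p = 0.0628), on which the median of all genes tested was -0.16. The call against heterozygous tissue was lost without heterozygous 1 (1.00, limma adjusted p = 0.0695) and without both lens-rich libraries (0.98, limma adjusted p = 0.211). The call against the 4 controls held under all 16 alternatives tried, with log2 fold changes from 0.87 to 1.05 and a largest limma adjusted p of 0.0272.

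Heterozygous tissue did not differ detectably from wildtype tissue in any cone gene. Gnb3 was lower in both heterozygous libraries than in both wildtype libraries, but the log2 fold change of -0.13 ± 0.09 (SE; 95% interval -0.35 to 0.09) did not pass (limma, adjusted p = 0.974). No cone gene was called, and the share of all genes called was 0%, with 619 of 15472 genes, and 0 of the 10 cone genes, at an unadjusted limma p under 0.05. The same contrast by voom on recovered reads called 0 genes.

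Whether Gnb3 departed from its cone partners was tested directly, by expressing every gene relative to the mean log2 level of the 9 other cone genes in its library. On that scale Gnb3 was at 3.01, 3.12 and 2.98 log2 units above the partners in knockout 1 to 3, at 1.94 and 1.83 in heterozygous 1 and 2, and at 1.97 and 1.92 in wildtype 1 and 2. The knockout libraries stood apart from all 4 controls, and the controls lay within a narrow range. The difference was 1.09 ± 0.09 against wildtype (SE; 95% interval 0.89 to 1.30; limma, adjusted p = 0.00311), 1.15 ± 0.09 against heterozygous (limma, adjusted p = 0.00388) and 1.12 ± 0.07 against the 4 controls (limma, adjusted p = 0.000287). The share of all genes called on this scale was 0.452% against wildtype, 0.336% against heterozygous and 1.03% against the 4 controls. Most of these calls were upward, 67 of 70 against wildtype, 48 of 52 against heterozygous and 153 of 159 against the 4 controls. Heterozygous against wildtype gave -0.06 ± 0.10 (SE; 95% interval -0.28 to 0.17), which did not pass (limma, adjusted p = 1.00). The partners set this scale. Their own estimates were below 0 for 9 of 9 against wildtype and against the 4 controls, and for 7 of 9 against heterozygous, so the difference holds their level as well as that of Gnb3.

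On a relative scale, Gnb3 kept its call against wildtype under each of 21 alternatives, with differences from 0.96 to 1.15. Some of these alternatives replaced the 9 partners with another yardstick, and the lowest difference, 0.96, was relative to genes of ON bipolar cells. With the 9 partners as the yardstick and 1 library left out, the departure of Gnb3 ran from 1.05 to 1.12. Without both lens-rich libraries it was 1.11 against wildtype (limma, adjusted p = 0.0212). With Gnat2 alone as the yardstick it was 1.11 (limma, adjusted p = 0.00613), with the 9 rod genes other than Gnb1 0.98 (limma, adjusted p = 0.00263), and with 14 genes of ON bipolar cells 0.96 (limma, adjusted p = 0.0108). These last yardsticks were chosen after the data had been seen.

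**Figure D2:**
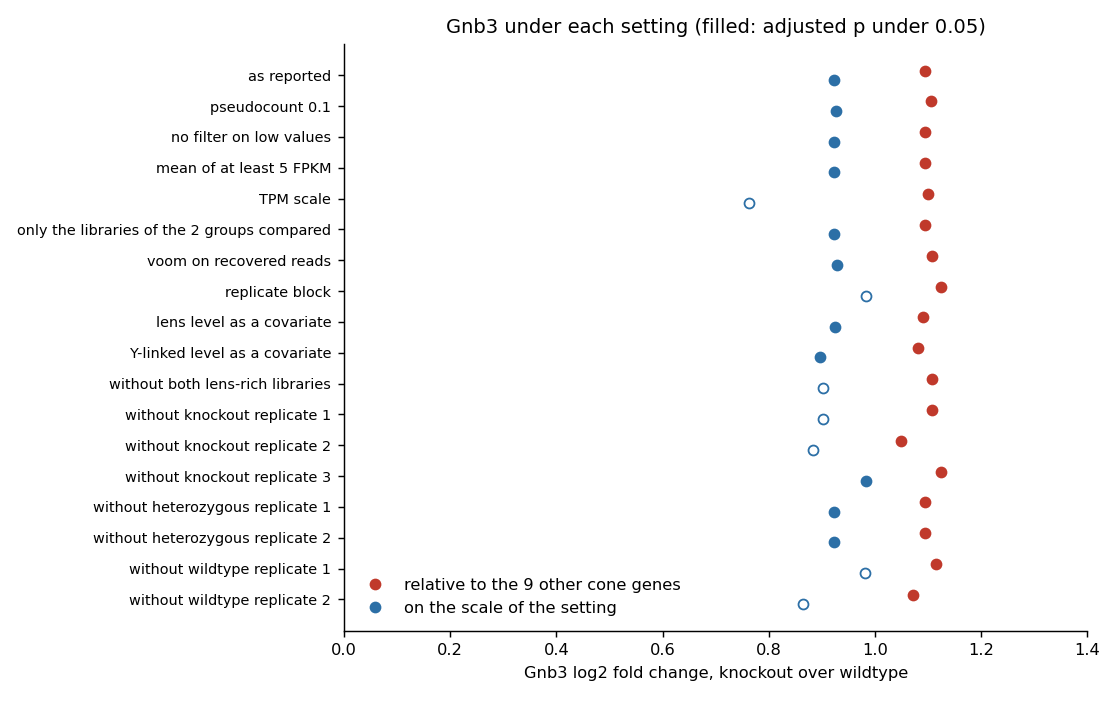
Log2 fold change of Gnb3 in knockout over wildtype for each planned setting (down the page), relative to the 9 other cone genes (red) and on the scale of the setting (blue), with filled points where the limma adjusted p was under 0.05. Relative to the partners all values are filled and lie between 1.05 and 1.12, whereas without the partners 7 of 17 alternatives are open.

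The ratios of Gnb3 to each partner are built from the same values and are given as a description. The ratio of Gnb3 to Gnat2, the alpha subunit of the same heterotrimer, was 4.48, 5.30 and 4.41 in knockout libraries, 2.08 and 2.02 in heterozygous libraries and 2.24 and 2.10 in wildtype libraries. The ratio to Gngt2, the gamma subunit, was 15.4, 14.8 and 18.2 in knockout libraries, 8.81 and 7.08 in heterozygous libraries and 7.66 and 7.74 in wildtype libraries. For all 9 partners the knockout ratios lay above every control ratio, but all 9 share the same Gnb3 values. Gnb3 alone was at 230.4 to 265 FPKM in knockout libraries and at 116 to 137 FPKM in controls. The ratio to any gene that varied less than this gap would separate too, so the 9 ratios are not further support. Gnb3 made up 31.8% to 35.3% of the summed FPKM of the 10 genes in knockout libraries, 17.0% and 18.4% in the heterozygous and 18.2% and 18.5% in the wildtype libraries. Without Gnb3 the other 9 genes summed to 486 to 523 FPKM in knockout libraries and to 511 to 606 FPKM in controls, ranges that overlapped.

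**Figure D3:**
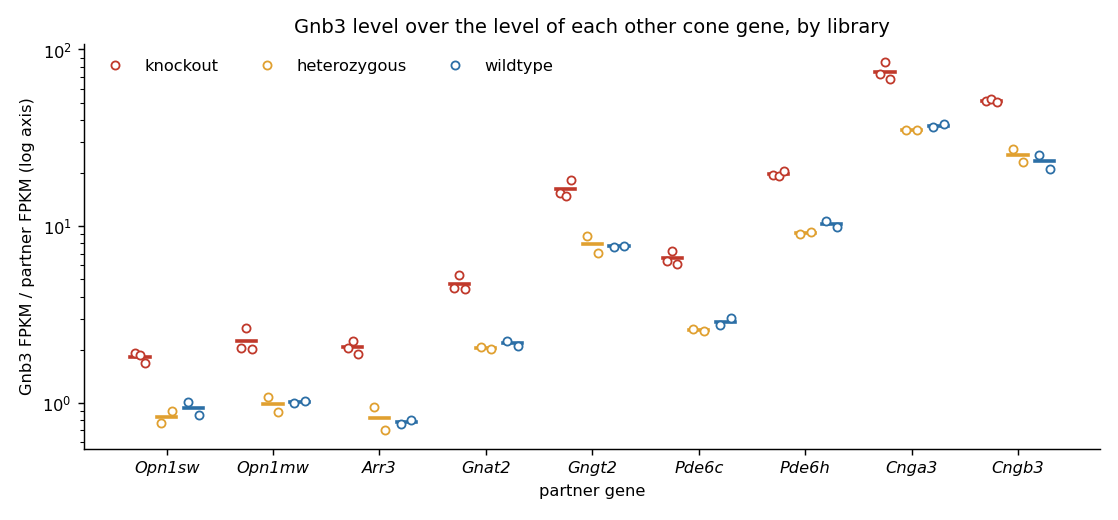
Ratio of the FPKM of Gnb3 to that of each of its 9 cone partners on a log axis, with an open point for each library and a bar at the mean of each genotype. For every partner the 3 knockout libraries lie above all 4 controls, for Gnat2 at 4.41 to 5.30 in knockout libraries against 2.02 to 2.24 in controls.

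The other transducin subunits gave no call. Gnat2 was at 57.5, 50.0 and 52.2 FPKM in knockout libraries, 55.5 and 61.6 FPKM in heterozygous libraries and 61.2 and 60.2 FPKM in wildtype libraries. Its knockout values lay below both wildtype values but overlapped heterozygous 1, with a log2 fold change against wildtype of -0.19 ± 0.08 (SE; limma, adjusted p = 0.677). Gngt2 ranged from 12.6 to 17.9 FPKM in knockout libraries, against 13.1 and 17.6 FPKM in heterozygous and 17.9 and 16.3 FPKM in wildtype libraries, so all genotypes overlapped (-0.13 ± 0.17 against wildtype, SE; limma, adjusted p = 0.899).

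The cone opsins did not pass the test either. Opn1sw, the pigment of short wavelengths, was at 135, 142 and 136 FPKM in knockout libraries, 149 and 138 FPKM in heterozygous libraries and 135 and 148 FPKM in wildtype libraries. It was the steadiest of the 10 genes, with a coefficient of variation of 4.36% over the 7 libraries, against 37.8% for Gnb3. Its log2 fold change against wildtype was -0.03 (95% interval -0.20 to 0.13; limma, adjusted p = 0.938). Opn1mw, the pigment of middle wavelengths, was at 126, 99.6 and 115 FPKM in knockout libraries, 107 and 139.9 FPKM in heterozygous libraries and 138 and 123 FPKM in wildtype libraries. The genotypes overlapped, and the log2 fold change against wildtype was -0.20 (95% interval -0.55 to 0.14; limma, adjusted p = 0.812). The ratio of Opn1sw to Opn1mw ran from 1.07 to 1.43 in knockout libraries and from 0.976 to 1.396 in controls.

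Arr3, the cone arrestin that binds phosphorylated opsin, had the lowest estimate of the 10 genes against wildtype. It was at 126, 117 and 122 FPKM in knockout libraries, 122 and 178 FPKM in heterozygous libraries and 179.5 and 158 FPKM in wildtype libraries. Heterozygous 1, a lens-rich library, lay among the knockout values, and the other 3 controls lay above them. The log2 fold change was -0.47 ± 0.15 against wildtype (SE; limma, adjusted p = 0.543) and -0.37 ± 0.13 against the 4 controls (limma, adjusted p = 0.336). Without heterozygous 1 it was -0.49 against the remaining controls and passed (limma, adjusted p = 0.0331), while over all 16 alternatives of that comparison the adjusted p ran up to 0.575. Arr3 and Opn1mw lie on the X chromosome and the libraries with Xist were 1 knockout and 1 wildtype. With the level of Y-linked genes as a covariate Arr3 stood at -0.48 against wildtype (limma, adjusted p = 0.682) and Opn1mw at -0.21 (limma, adjusted p = 0.889).

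The subunits of the effector enzyme and of the channel gave no call. Pde6c, the catalytic subunit of the cone phosphodiesterase, was at 40.4, 36.6 and 37.4 FPKM in knockout libraries, 43.9 and 48.7 FPKM in heterozygous libraries and 50.0 and 41.8 FPKM in wildtype libraries. All knockout values lay below all controls, but the difference of -0.26 ± 0.07 on the log2 scale did not pass against the 4 controls (SE; limma, adjusted p = 0.247). Pde6h, the inhibitory subunit, overlapped between genotypes at 11.3 to 13.8 FPKM in knockout libraries, against 12.7 to 13.5 FPKM in controls (-0.01 against wildtype; limma, adjusted p = 0.981). Cnga3, the main subunit of the cone channel, was at 3.13 to 3.55 FPKM in knockout libraries and 3.31 to 3.78 FPKM in controls (-0.06 against wildtype; limma, adjusted p = 0.905). Cngb3, its modulatory subunit, was at 4.58 to 5.03 FPKM in knockout libraries, 4.23 and 5.39 FPKM in heterozygous libraries and 5.42 and 5.96 FPKM in wildtype libraries (-0.19 against wildtype; limma, adjusted p = 0.771).

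As a list, the 9 partners had a median log2 fold change of -0.19 in knockout against wildtype tissue, with 9 of 9 below 0, beside a median of -0.0034 and 51.0% below 0 for all genes tested. Against the 4 controls the median was -0.08 and again 9 of 9 were below 0, beside 0.0027 and 49.2% for all genes. None of the 9 passed the test, which is close to the share of all genes called, 0.323% against wildtype and 0.614% against the 4 controls. No call is therefore not evidence that the partners were unchanged. Other lists of retinal neurons also lay mostly below 0 against wildtype. It was 9 of 10 rod counterparts, with a median of -0.09, and 13 of 13 tested genes of amacrine, ganglion and horizontal cells, with a median of -0.14. The count of partners below 0 against wildtype was 7 of 9 without knockout 3 and 8 of 9 without wildtype 1 or without wildtype 2, and it was 9 of 9 on the TPM scale with its median of -0.16 over all genes. Against heterozygous tissue 7 of 9 were below 0, with a median of -0.06.

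**Figure D4:**
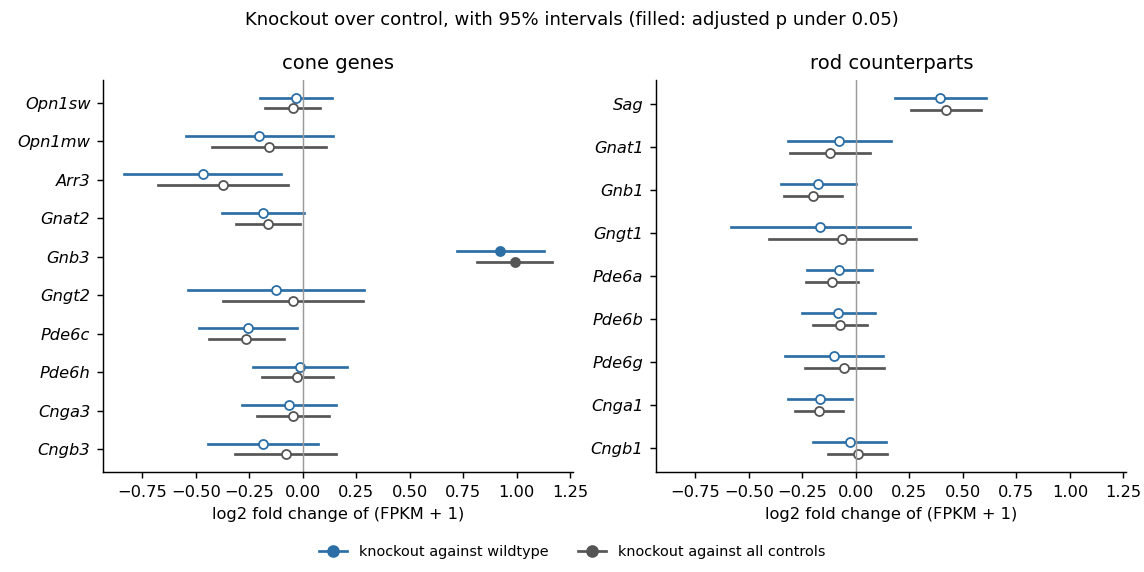
Log2 fold changes of (FPKM + 1) with 95% intervals for the 10 cone genes (left) and 9 rod counterparts (right), in knockout against wildtype and knockout against all controls, with filled points where the limma adjusted p was under 0.05. Gnb3 is the filled gene, at 0.92 and 0.99, and Sag is the rod gene furthest above 0, at 0.39 and 0.42.

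The rod counterparts of the 10 genes gave no call in any comparison. At most 0.614% of all genes were called in a comparison, so 0 calls in a list this short is close to the share of all genes. Gnb1, the rod counterpart of Gnb3, was at 775, 752 and 766 FPKM in knockout libraries, 917 and 875 FPKM in heterozygous libraries and 838 and 890.3 FPKM in wildtype libraries. The knockout values lay below all controls, on the other side from those of Gnb3, yet did not pass (-0.20 against the 4 controls; limma, adjusted p = 0.257). The ratio of Gnb3 to Gnb1 was 0.301 to 0.352 in knockout libraries and 0.126 to 0.164 in controls. The median over the 10 rod genes was -0.09 against wildtype.

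The estimates of the cone and rod arrestins lay on opposite sides of 0, and neither passed. Sag, the rod arrestin, was at 480.4, 467 and 486 FPKM in knockout libraries, 322 and 379.6 FPKM in heterozygous libraries and 377 and 349.98 FPKM in wildtype libraries. It was higher in all knockout libraries than in all controls, without passing the test (0.42 against the 4 controls; limma, adjusted p = 0.0591). The ratio of Arr3 to Sag was 0.262, 0.251 and 0.2504 in knockout libraries, 0.379 and 0.468 in heterozygous libraries and 0.476 and 0.452 in wildtype libraries, with no overlap. This ratio was not tested.

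Regulators of the cascade, cone identity genes and photoreceptor transcription factors were set beside the cone genes, and none of them was called. Against wildtype 0.323% of all genes were called, so 0 calls in lists this short is close to that share. Of 15 regulators shared by rods and cones or used by 1 of them, 0 were called against wildtype, with a median of -0.07. Gucy2f, a guanylate cyclase that restores cyclic GMP, had the smallest p among them, at 36.2 ± 1.42 FPKM in knockout and 43.9 ± 3.17 FPKM in wildtype libraries (SD, n = 3 and n = 2; log2 fold change -0.27; limma, adjusted p = 0.417). Of 6 cone identity genes 0 were called, with a median of -0.01 and 3 of 6 estimates below 0. Rxrg, a nuclear receptor of cones, stood at 3.17 ± 0.14 FPKM in knockout and 3.89 ± 0.188 FPKM in wildtype libraries (SD, n = 3 and n = 2; log2 fold change -0.23; limma, adjusted p = 0.585). Otop3, which encodes a proton channel, lay on the other side of 0, at 5.87 ± 0.76 FPKM in knockout and 4.71 ± 0.75 FPKM in wildtype libraries (log2 fold change 0.27; limma, adjusted p = 0.736). Of 7 photoreceptor factors 0 were called, with a median of -0.02 and 4 of 7 below 0. Neurod1, a helix-loop-helix factor of photoreceptors whose exons share bases with Cerkl, averaged 150.1 ± 12.1 FPKM in knockout and 129.6 ± 2.13 FPKM in wildtype libraries (log2 fold change 0.21; limma, adjusted p = 0.627). Rorb, a nuclear receptor, averaged 32.2 ± 1.18 FPKM in knockout and 39.4 ± 1.92 FPKM in wildtype libraries (log2 fold change -0.28; limma, adjusted p = 0.580). Crx, the homeodomain factor of rods and cones, averaged 329 ± 3.83 FPKM in knockout and 349 ± 0.715 FPKM in wildtype libraries (limma, adjusted p = 0.801).

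Gnb3 was also set beside the other G protein subunits and its neighbours on the chromosome. Of 14 tested G beta, gamma and related genes 0 were called against wildtype, beside 0.323% of all genes, with a median of -0.08. Gnb2, a beta subunit used in many tissues, was at 28.7 ± 3.03 FPKM in knockout and 22.0 ± 1.58 FPKM in wildtype libraries (SD, n = 3 and n = 2; log2 fold change 0.36; limma, adjusted p = 0.627). P3h3, a collagen hydroxylase gene 814 bases from Gnb3, was at 15.6, 17.1 and 16.4 FPKM in knockout libraries, 12.7 and 14.97 FPKM in heterozygous libraries and 13.0 and 13.4 FPKM in wildtype libraries (limma, adjusted p = 0.472 against wildtype). Of 8 tested neighbours 0 were called against wildtype and 8 had estimates above 0, with a median of 0.14, while 51.0% of all genes lay below 0. Against the 4 controls again 0 were called and 8 lay above 0, with a median of 0.22 (smallest limma adjusted p = 0.211). The mean log2(FPKM + 1) of 10 neighbours was 4.03 to 4.16 in knockout libraries and 3.83 to 3.99 in controls. Whether this is tied to the rise of Gnb3 was not tested. Cdca3, 539 bases from Gnb3 on the other side from P3h3, was under the filter at 0.890 to 1.08 FPKM in knockout libraries and 0.811 to 1.33 FPKM in controls.

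Genes of the other cell type that uses Gnb3 gave no call. Of 14 genes of ON bipolar cells 0 were called against wildtype, with a median of -0.05 and estimates from -0.19 to 0.09. Since 0.323% of all genes were called against wildtype, 0 calls in a list this short is close to that share. Grm6, the glutamate receptor of ON bipolar cells, was at 35.3 ± 2.81 FPKM in knockout and 37.9 ± 2.74 FPKM in wildtype libraries (SD, n = 3 and n = 2; limma, adjusted p = 0.845). Trpm1, their channel, was at 36.3 ± 2.37 FPKM in knockout and 35.2 ± 2.63 FPKM in wildtype libraries (limma, adjusted p = 0.927). Summed over the 14 genes, the level was 391 to 414 FPKM in knockout libraries and 387 to 422 FPKM in controls.

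A marker list of another cell type moved with Gnb3. Of 8 microglia genes 6 were tested and 3 were called against wildtype (Csf1r, C1qb and C1qc), with a median of 0.81, and 4 against the 4 controls (C1qa as well). Of all genes tested, 0.323% were called against wildtype and 0.614% against the 4 controls. Csf1r, a growth factor receptor of microglia, was at 4.86, 4.88 and 5.04 FPKM in knockout libraries, 2.57 and 2.38 FPKM in heterozygous libraries and 2.13 and 2.24 FPKM in wildtype libraries. The summed level of the 8 genes was 31.6 to 36.3 FPKM in knockout libraries and 15.9 to 17.5 FPKM in controls, and no gene of the list was at 0 in any library. The part of these cells in the level of Gnb3 was not tested.

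**Figure D5:**
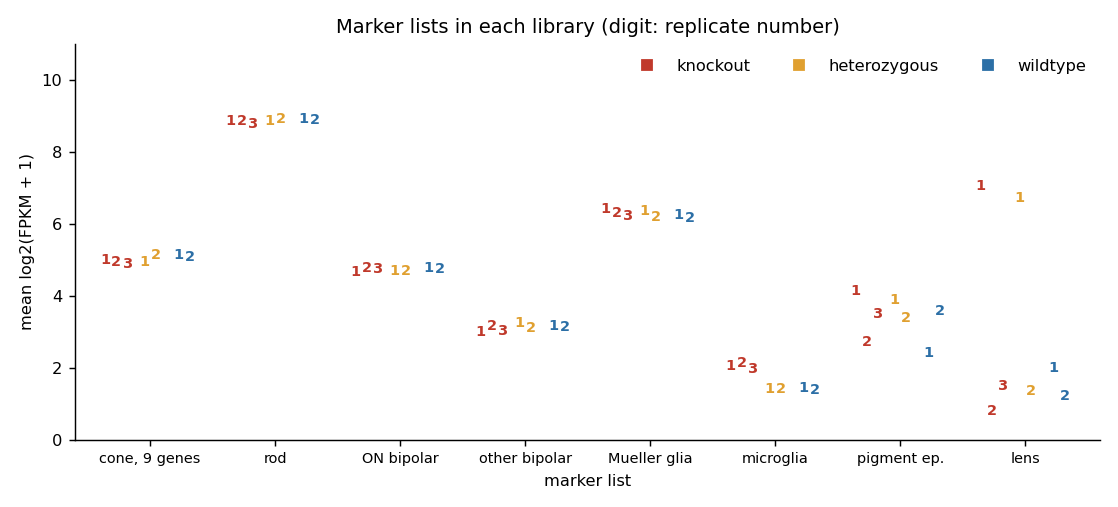
Mean log2(FPKM + 1) of 8 marker lists in each library, where the digit is the replicate number and the colour the genotype. The microglia list is higher in the 3 knockout libraries, at 1.98 to 2.12, than in the 4 controls, at 1.39 to 1.44, the lens list stands out in knockout 1 and heterozygous 1, and the 9 cone genes without Gnb3 overlap at 4.88 to 5.01 in knockout libraries and 4.93 to 5.14 in controls.

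The genes most like Gnb3 over the 7 libraries were ranked by Pearson correlation of log2(FPKM + 1) among 8230 genes, as a description in which all points share the same libraries and genotypes. They were Stat3 (r = 0.994), a transcription factor of cytokine signalling, Klhl29 (0.992), Agtpbp1 (0.991), another tubulin deglutamylase of the family of Agbl5, C1qb (0.988), a complement gene, and Cerkl (0.988). Agtpbp1 was at 21.5, 22.8 and 20.4 FPKM in knockout libraries. It was at 11.4 and 11.4 FPKM in heterozygous libraries and at 11.6 and 11.8 FPKM in wildtype libraries. Because Agtpbp1 was picked for its likeness to Gnb3 in these libraries, its separation by genotype followed from that choice and is not a test. Exons of Stat5a overlap Stat3, and exons of Itga4 and Neurod1 overlap Cerkl. Among the genes most like the mean of the 9 partners were Pdc (r = 0.965), which encodes phosducin, a protein that binds transducin beta and gamma subunits in photoreceptors, Slc46a1 (0.959), Cct7 (0.952) and Uros (0.951). Among the 36 pairs of the 9 partners the median r was 0.38, from -0.67 (the lowest) to 0.90, and between Gnb3 and each partner it was -0.41, from -0.78 (Pde6c) to 0.04.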

How the data were processed

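RNA was sequenced in 7 eye libraries (3 knockout, 2 heterozygous, 2 wildtype) from polyadenylated RNA, per the labels' protocols. The deposited table gave FPKM computed by the authors, 1 column per library. HTSeq, DESeq, Bowtie2 2.0.6 and TopHat2 2.0.9 are named, along with mm10 and GRCm38, per the submitters' processing notes. Their settings and the annotation release are not given in the sources used here. The members and gene lists were chosen with earlier results of these data known.

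Groups were taken from the genotype labels. FPKM were analysed as log2(FPKM + 1), which understates fold changes of low genes, for the 15472 genes that averaged 1 FPKM or more. limma 3.58.1 in R 4.3.3 (empirical Bayes with a mean-variance trend, Benjamini-Hochberg adjustment over all genes tested, threshold 0.05) compared the 3 genotypes with each other in 1 fit, with 4 residual degrees of freedom. Knockout was compared with the 4 controls in a fit of 2 groups, with 5. For the departure of Gnb3, the mean log2 level of the 9 other cone genes was subtracted from every gene in each library before the same fit. The procedure was tested on simulated data.

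Identifiers of 54495 of the 54532 genes matched GENCODE M21, whose exon lengths turned 96.8% of values above 0 into whole reads, within a tolerance of 0.01. Those reads served for voom as an alternative. Over genes with whole reads in all libraries they summed to 12244707 to 14339701 per library. The library sizes behind the FPKM, which voom used, were 13052142 (heterozygous 2) to 15080548 (wildtype 2). Other alternatives were a pseudocount of 0.1, other filters, the TPM scale, fits of 2 groups, covariates for lens and Y-linked RNA, libraries left out and the replicate number as a block. Other yardsticks for Gnb3 were added after seeing the data. The rule for naming genes took all members, their rod counterparts and Agbl5. From the other lists it took called genes or, where none was called, up to 4 of the smallest p. It added genes overlapping a member or near Gnb3 and the 5 genes most correlated with Gnb3 and with its partners. Trpm1, Cryaa and Xist were named outside the rule and were chosen after their values were seen. Amino acid sequences were not used here, and 2 genes that the rule names and 1 shared stretch are not reported here.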

Additional observations from a re-analysis of the deposited data

How the results depend on the processing

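The number of cone genes called against wildtype was 1, and 0 on the TPM scale, with the replicate block and without both lens-rich libraries, and 0 to 1 with 1 library left out. Against heterozygous it was 1, and 0 with the replicate block and without both lens-rich libraries, and 0 to 1 with 1 library left out. Against the 4 controls it was 1, and 1 to 2 with 1 library left out. The cause was not tested.

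The number of all genes called moved more. Against wildtype it was 50, against 28 on the TPM scale, 77 by voom on recovered reads, 28 with the lens covariate, 33 with the Y-linked covariate, 3 without both lens-rich libraries and 5 to 53 with 1 library left out. Against heterozygous it was 49, against 31 in the fit of 2 groups, 77 by voom, 0 without both lens-rich libraries and 14 to 40 with 1 library left out. Against the 4 controls it was 95, against 63 on the TPM scale, 148 by voom, 48 without both lens-rich libraries and 45 to 90 with 1 library left out. Heterozygous against wildtype gave 0, against 19 with no filter on low values, 1 in the fit of 2 groups and 0 to 3 with 1 library left out.

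The numbers of the replicates were not used as pairs in the main fits, and the correlations given here cannot decide whether they mark pairs. In a group of 2 libraries the deviations mirror each other, so knockout 1 with heterozygous 2 gave -0.43 where knockout 1 with heterozygous 1 gave 0.43. Knockout 1 and heterozygous 1 are also the lens-rich libraries. Deviations of same-numbered libraries correlated at 0.43 (knockout 1 and heterozygous 1), 0.092 (knockout 1 and wildtype 1), 0.271 (knockout 2 and heterozygous 2), -0.023 (knockout 2 and wildtype 2) and -0.018 (heterozygous and wildtype). Knockout 3 is the only library of its number, so the replicate block took it out of the comparisons with the controls. The fold changes with the block are therefore those without knockout 3. With the replicate block Gnb3 was at 0.98 against wildtype (limma, adjusted p = 0.114) and 1.12 against heterozygous (limma, adjusted p = 0.128), and relative to its partners at 1.12 against wildtype (limma, adjusted p = 0.0166). The block gave 3, 0 and 38 genes called against wildtype, heterozygous and the 4 controls.

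Of 599 values of the other 9 cone genes under alternatives, 598 stayed on the same side of the threshold and 1 passed it, Arr3 without heterozygous 1. Cnga3 fell below the filter of 5 FPKM and had no value there. Groups of 2 and 3 libraries limit the precision.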
